A study of Mus musculus with 12 samples.

Results

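A set of 10 genes of RNA polymerase I and of the factors that start and assist transcription of ribosomal DNA were followed in Ddx27 knockout and wild-type cells of C2C12, a mouse myoblast line that is long established. Ddx27 encodes a DEAD-box helicase of the nucleolus that acts in the maturation of ribosomal RNA. The genes were chosen by name as Polr1a, Polr1b, Polr1c, Polr1e, Rrn3, Ubtf, Tcof1, Nolc1, Ncl and Ddx21. All 10 were listed in both genotypes' tables, among 12590 genes shared by the tables. The labels give the knockout as Ddx27-/- and the controls as wildtype, each sampled as RNA of purified polysomes, the messenger RNAs that carry several ribosomes, and as total cellular RNA, both extracted with Trizol. The labels list 12 samples, 3 in each group, and values were analysed for 11 libraries: 3 knockout polysomal, 2 knockout total, 3 wild-type polysomal and 3 wild-type total. The third knockout total sample was not analysed here, and knockout libraries are numbered by their table columns. No treatment, clone or way of making the knockout is given in the labels, and nothing states that replicates are separate cultures. The p-values therefore measure only the spread between these libraries. Reads of wild-type total replicates 1 and 2 were the most alike, with a chi-square per degree of freedom of 4.03. It was 22.3 and 21.8 for these against replicate 3, and 109 to 593 within the other groups. Whether those 2 replicates are separate cultures was not tested.

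RNA polymerase I transcribes the ribosomal DNA repeats into the precursor of most ribosomal RNA inside the nucleolus. Ubtf binds the repeats and the promoter selectivity factor SL1 marks their start, and Rrn3 bridges the polymerase to that promoter. Tcof1, Nolc1, Ncl and Ddx21 are nucleolar proteins that assist this transcription or couple it to processing of the transcript. Output of the system rises with growth of the cell and is known to fall as myoblasts differentiate.

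Promoter windows of RefSeq (build GRCm38.p6), which span 250 bases before to 50 after a gene's start, were found for 9 of the 10 genes. The bases around the start are shown for 5 genes whose polysomal values are described below, because messenger RNAs of ribosomal proteins open with a run of pyrimidines that ties their translation to growth signals. Each line gives 20 bases before the start in lower case and the first 20 transcribed bases in capitals, 5′ to 3′ on the gene's strand.
Polr1a: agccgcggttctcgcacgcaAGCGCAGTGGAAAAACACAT
Polr1c: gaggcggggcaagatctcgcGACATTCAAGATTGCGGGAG
Polr1e: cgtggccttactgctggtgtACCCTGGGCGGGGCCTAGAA
Nolc1: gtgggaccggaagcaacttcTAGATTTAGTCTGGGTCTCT
Ncl: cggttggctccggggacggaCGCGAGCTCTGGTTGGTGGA
These stand at chr6:71909033-71909072 (plus strand) for Polr1a, chr17:46248026-46248065 (minus strand) for Polr1c, chr4:45018589-45018628 (plus strand) for Polr1e, chr19:46075827-46075866 (plus strand) for Nolc1 and chr1:86359436-86359475 (minus strand) for Ncl. The longest run of C or T counted from the first transcribed base was 1 base in any window of the 9 genes, and a run of at least 5 was found at 4.44% of all 32851 windows. The letters CACGTG, the core of the E-box bound by Myc, read alike on both strands and were found in 7.15% of all windows. Of the 9 genes only Rrn3 held them, starting 215 and 48 bases before its start. Its 250 bases before the start, at chr16:13780449-13780698 (plus strand), are shown with both matches in capitals.
Rrn3: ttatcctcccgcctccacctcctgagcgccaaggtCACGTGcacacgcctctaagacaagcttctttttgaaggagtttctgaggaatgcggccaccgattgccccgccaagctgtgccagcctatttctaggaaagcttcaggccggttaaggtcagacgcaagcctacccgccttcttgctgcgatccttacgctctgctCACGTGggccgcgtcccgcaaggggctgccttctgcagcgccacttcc
A match of letters is a description of the window and shows no binding.

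Levels are normalised read counts, put on 1 scale across the genotypes, and each fold change is an estimate by limma on log2 of the value plus 1, with its standard error (SE) and a p-value adjusted over all genes tested, at a threshold of 0.05. Libraries held 13683674 to 27347878 reads in the listed genes. The 10 genes had between 304 reads (Polr1e) and 43256 reads (Ncl) in a library. Ddx27 itself ran from 31.6 to 54.3 in knockout polysomal and 41.9 to 47.5 in knockout total libraries, against 142 to 203 and 136 to 145 in wild-type polysomal and total libraries, so its transcript was still read in every knockout library. Reads on 4 gene models to which ribosomal RNA maps (rRNA-like reads) made up 0.385 to 32.7% of knockout polysomal, 0.674 to 14.5% of wild-type polysomal and 0.0535 to 0.135% of total RNA libraries. Of 5 myoblast markers 4 were present in every group. Summed over all 5, levels were 479 to 544 in knockout polysomal and 1088 to 1271 in knockout total libraries. In the wild type they were 838 to 1068 in polysomal and 2820 to 3914 in total libraries. Of the 5, Myf5 ran higher in knockout total libraries, from 113 to 129, against 56.0 to 68.2 in wild-type total libraries. In polysomal libraries Myf5 read 73.7 to 116 in the knockout and 52.9 to 90.6 in the wild type. Myod1, the myoblast determination factor, ran from 0 to 0.0869 in knockout polysomal and 0.383 to 1.20 in knockout total libraries, against 65.6 to 97.9 and 132 to 173 in wild-type polysomal and total libraries. The summed level of 5 differentiated muscle genes was 7.02 to 12.3 in knockout polysomal, 92.2 to 116 in knockout total, 11.6 to 23.6 in wild-type polysomal and 213 to 613 in wild-type total libraries. Of 4 fibroblast markers 2 were listed for both genotypes, and their summed level was 7.51 to 11.6 in knockout polysomal, 16.2 to 20.9 in knockout total, 2.89 to 8.47 in wild-type polysomal and 25.2 to 40.7 in wild-type total libraries. Of 4 adipocyte and 3 leukocyte markers 1 each was listed for both genotypes, Pparg at 17.8 to 31.3 and Cd68 at 0.858 to 5.21 over all libraries. What part these differences have in the results below was not tested.

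Per kilobase of the deposited gene length Ncl stood highest of the 10 genes in every group. That length, 6071 bases for Polr1a, is shorter than the gene's span, and which bases it counts was not checked. Its level per kilobase averaged 94.8 ± 23.6 in knockout polysomal (SD, n = 3), 135 ± 8.94 in knockout total (n = 2), 158 ± 65.3 in wild-type polysomal (n = 3) and 100.3 ± 11.4 in wild-type total RNA (n = 3). Nolc1, Ddx21 and Polr1c followed it, in varying order, in the knockout groups and in wild-type polysomal RNA, and neighbours among these 3 did not differ beyond their spread. In wild-type total RNA the order after Ncl was Ddx21 at 68.4 ± 5.48, Nolc1 at 60.6 ± 3.23, Tcof1 at 36.5 ± 3.15 and Polr1c at 34.6 ± 2.10. Polr1b and Polr1e, 2 subunits of the same enzyme, were the lowest of the 10 in every group, at 9.27 ± 0.324 and 7.78 ± 0.769 per kilobase in wild-type total RNA. The largest subunit Polr1a stood at 29.0 ± 0.253 there, close to Rrn3 at 29.9 ± 1.23, and at 9.0 ± 2.21 in knockout polysomal RNA, where its spread overlaps that of Polr1e at 7.43 ± 0.741. 

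**Figure D1:**
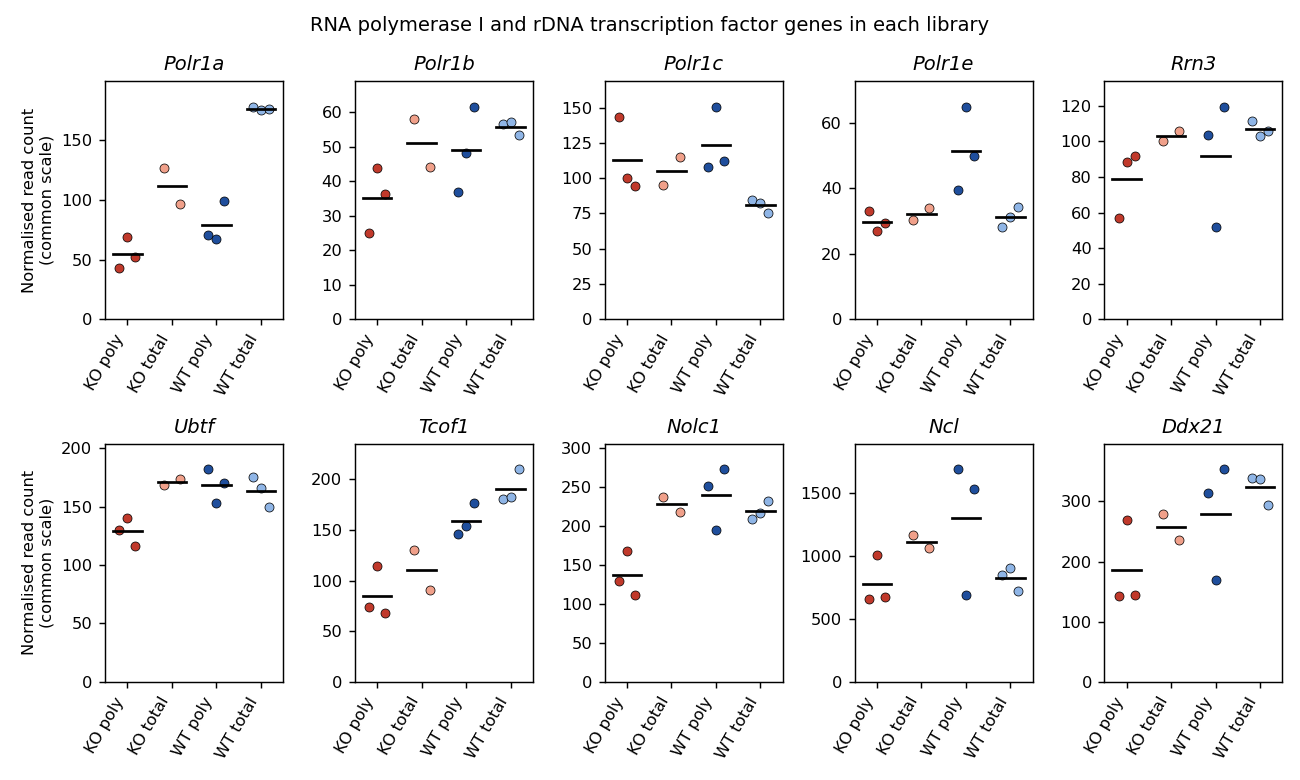
Normalised read count on the common scale (y axis, from 0) of each of the 10 genes in every library, by group on the x axis, with a point per library and a line at the group mean. Polr1a lies lower in every polysomal library than in the total RNA libraries of its genotype, and Nolc1 and Tcof1 lie lower in all 3 knockout polysomal libraries than in all 3 wild-type polysomal libraries.

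Polr1a (ENSMUSG00000049553; GRCm38 chromosome 6, 71909053 to 71979435) encodes the largest, catalytic subunit of RNA polymerase I. Its levels were 42.8, 69.1 and 51.9 in knockout polysomal libraries 1 to 3 and 127 and 96.2 in knockout total libraries 1 and 2. They were 70.8, 66.8 and 99.3 in wild-type polysomal replicates 1 to 3 and 178, 175 and 176 in wild-type total replicates 1 to 3. All polysomal libraries were below all total RNA libraries of their genotype, and the knockout total libraries were below the wild-type ones. In the knockout the estimate was −0.99 ± 0.27 (3 against 2, adjusted p = 0.0889, 95% interval −1.61 to −0.37), which did not pass. It passed without knockout polysomal library 1, at −0.83 (adjusted p = 0.0455), with DESeq2 (−1.03, adjusted p = 0.0153) and with a trend on gene length removed (−1.02, adjusted p = 0.0127). Over all genes these fits called 760, 751 and 798 lower, in that order, against 223 in the planned fit. In the wild type Polr1a fell by 1.17 ± 0.21 on the log2 scale in polysomal against total RNA (SE, 3 libraries against 3, adjusted p = 0.00956). The call ended without wild-type total replicate 1, 2 or 3 (adjusted p = 0.064, 0.0616 and 0.0627), while the estimate lay between −1.36 and −1.02 over all fits that leave out 1 library. The authors' deposited table gives Polr1a −0.99 with an FDR of 0.0262 in the knockout and −1.15 with an FDR of 0.000753 in the wild type.

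The difference of Polr1a between genotypes in polysomal enrichment was 0.14 ± 0.33 (95% interval −0.58 to 0.86, adjusted p = 0.814). Knockout over wild type, Polr1a stood at −0.53 ± 0.22 in polysomal RNA (adjusted p = 0.173) and −0.67 ± 0.25 in total RNA (adjusted p = 0.0986). The polysomal value passed with the length trend removed (−0.60, adjusted p = 0.0333). The total RNA value passed without wild-type polysomal replicate 2, a library that enters only through the shared spread (adjusted p = 0.0491), and in a fit of the total RNA libraries alone (adjusted p = 0.0126). Over all genes, alternatives other than leaving out 1 library called 616 to 2273 lower in total RNA, against 721 in the planned fit.

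Polr1b (ENSMUSG00000027395; GRCm38 chromosome 2, 129100970 to 129128060) encodes the second largest subunit, which forms the active centre together with Polr1a. It read 25.0, 44.0 and 36.2 in knockout polysomal libraries 1 to 3 and 58.2 and 44.3 in the knockout total libraries. In the wild type it read 37.0, 48.3 and 61.7 in the polysomal and 56.6, 57.3 and 53.6 in the total RNA replicates. The wild-type fractions overlap, and in the knockout the highest polysomal and the lowest total library are nearly equal, overlapping on the deposited scale used for the test. Polysomal over total RNA, its estimate was −0.52 ± 0.29 in the knockout (adjusted p = 0.33) and −0.21 ± 0.22 in the wild type (adjusted p = 0.484). Between genotypes, knockout over wild type, it stood at −0.48 ± 0.24 in polysomal RNA (adjusted p = 0.268) and −0.13 ± 0.27 in total RNA (adjusted p = 0.766).

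Polr1c (ENSMUSG00000067148; GRCm38 chromosome 17, 46243920 to 46248045), a subunit that RNA polymerases I and III share, had the opposite direction to Polr1a in wild-type polysomes. In the knockout, Polr1c read 144, 100.4 and 94.4 in polysomal and 95.5 and 115 in total libraries, which overlap, with an estimate of 0.12 ± 0.26 (adjusted p = 0.818). It read 108, 151 and 112 in wild-type polysomal replicates 1 to 3, against 84.9, 82.4 and 75.4 in the total RNA replicates, with no overlap. In the wild type Polr1c rose by 0.59 ± 0.17 on the log2 scale (adjusted p = 0.0461). The call ended without any of the 3 total RNA replicates (adjusted p = 0.155, 0.168 and 0.177), without polysomal replicate 1 or 3 (adjusted p = 0.065 and 0.0541) and once a trend on gene length was removed (0.43, adjusted p = 0.0679). Over all genes, fits without a wild-type total replicate called 83 to 144 higher, against 1101 with every library. The knockout over wild-type estimate was −0.14 ± 0.21 in polysomal RNA (adjusted p = 0.737) and 0.37 ± 0.23 in total RNA (adjusted p = 0.301).

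Polr1e (ENSMUSG00000028318; GRCm38 chromosome 4, 45018609 to 45034279) encodes the subunit known as PAF53, which in mammals helps the polymerase bind its initiation factors. It read 32.9, 27.0 and 29.5 in knockout polysomal and 30.2 and 34.0 in knockout total libraries, which overlap. In the wild type it read 39.5, 64.9 and 49.9 in polysomal replicates 1 to 3 and 28.2, 31.1 and 34.3 in total RNA replicates 1 to 3. All 3 wild-type polysomal libraries stood above the other 8. In polysomal RNA Polr1e fell by 0.74 ± 0.20 in the knockout against the wild type (3 against 3, adjusted p = 0.0437), while in total RNA the estimate was 0.04 ± 0.23 (95% interval −0.45 to 0.54, adjusted p = 0.917). The call in polysomal RNA ended in 10 of the 11 fits that leave out 1 library (adjusted p from 0.0566 to 0.142), the exception being wild-type polysomal replicate 1. It also ended in a fit of the polysomal libraries alone (adjusted p = 0.192), under quantile normalization (0.0536) and without the 3 polysomal libraries that hold over 10% rRNA-like reads (0.127).

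Polysomal over total RNA, Polr1e stood at −0.07 ± 0.23 in the knockout (adjusted p = 0.894) and at 0.68 ± 0.20 in the wild type (adjusted p = 0.0506), just short of the threshold. It passed in the wild type without polysomal replicate 1 (0.83, adjusted p = 0.0438) or replicate 2 (0.54, adjusted p = 0.0124). It also passed there with edgeR (adjusted p = 0.0475), DESeq2 (0.0144) and the length trend removed (0.0344). The authors' deposited table gives Polr1e 0.71 with an FDR of 0.0479 in the wild type. The difference between genotypes was −0.78 ± 0.30 (95% interval −1.45 to −0.12) and did not pass over all genes (adjusted p = 0.188).

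**Figure D2:**
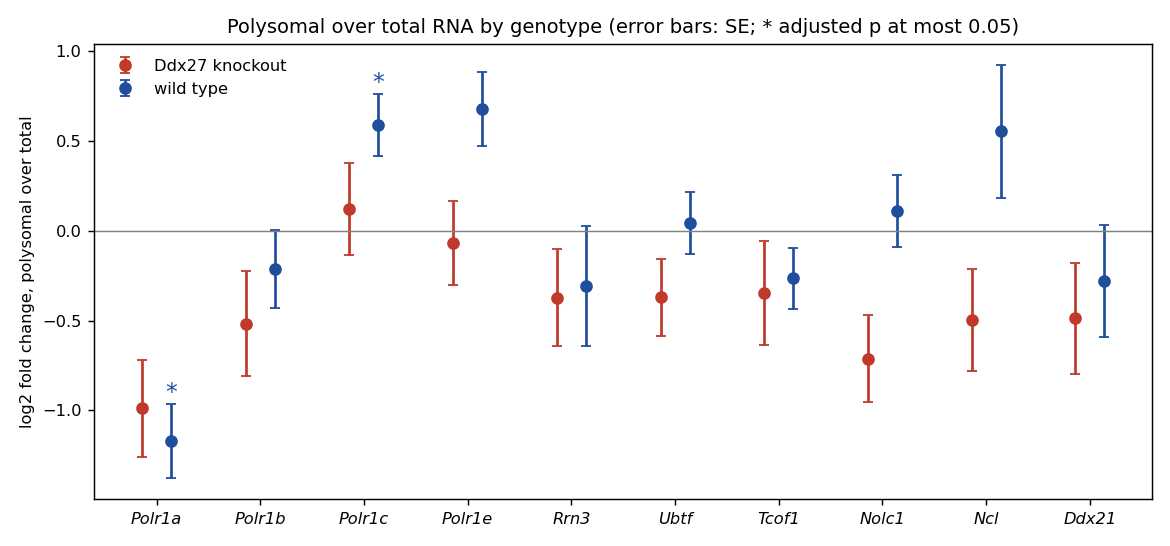
Polysomal over total RNA as a log2 fold change (y axis) with its SE for each gene (x axis), knockout left and wild type right of each position, with a star at an adjusted p of at most 0.05. Polr1a is lowest in both genotypes, at −0.99 in the knockout and −1.17 in the wild type, and Ncl stands at −0.50 in the knockout and 0.55 in the wild type, neither of which passed.

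Rrn3 (ENSMUSG00000022682; GRCm38 chromosome 16, 13780699 to 13814841), the growth-regulated initiation factor also called TIF-IA, read 56.7, 88.5 and 91.8 in knockout polysomal and 100.4 and 106 in knockout total libraries. It read 103, 51.7 and 119.6 in wild-type polysomal and 112, 103 and 106 in wild-type total libraries. The knockout fractions do not overlap, and wild-type polysomal replicate 2 lies far below the other wild-type libraries. Its estimates for polysomal over total RNA were −0.37 ± 0.27 in the knockout (adjusted p = 0.446) and −0.31 ± 0.33 in the wild type (adjusted p = 0.515). Without wild-type polysomal replicate 2 the wild-type estimate was 0.10 (adjusted p = 0.498). For knockout over wild type the estimates were −0.16 ± 0.29 in polysomal RNA (adjusted p = 0.794) and −0.05 ± 0.32 in total RNA (adjusted p = 0.933, 95% interval −0.76 to 0.66).

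Ubtf (ENSMUSG00000020923; GRCm38 chromosome 11, 102304560 to 102323649), the architectural factor that binds the ribosomal DNA, had the smallest coefficient of variation of the 10 genes within both knockout groups, 7.85% in polysomal and 2.07% in total RNA. It read 129.9, 140.0 and 116 in knockout polysomal libraries and 168 and 173 in knockout total libraries. In the wild type it read 182, 153 and 170.2 in polysomal and 175, 165 and 149.6 in total libraries. The 3 knockout polysomal libraries were below the other 8. The estimates were −0.37 ± 0.22 for polysomal over total RNA in the knockout (adjusted p = 0.345) and 0.04 ± 0.17 in the wild type (adjusted p = 0.875). The genotype contrast, knockout over wild type, gave −0.39 ± 0.16 in polysomal RNA (adjusted p = 0.162) and 0.07 ± 0.17 in total RNA (adjusted p = 0.82). The difference in enrichment was −0.45 ± 0.23 (95% interval −0.97 to 0.06, adjusted p = 0.284).

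Tcof1 (ENSMUSG00000024613; GRCm38 chromosome 18, 60813738 to 60848983) encodes treacle, a nucleolar phosphoprotein that binds Ubtf and the polymerase. It read 73.6, 114 and 67.9 in knockout polysomal and 130.4 and 90.6 in knockout total libraries. It read 146, 154 and 177 in wild-type polysomal and 181, 182 and 210.0 in wild-type total libraries, so every knockout library was below every wild-type library. In polysomal RNA Tcof1 fell by 0.93 ± 0.22 in the knockout against the wild type (adjusted p = 0.0264). In total RNA the estimate was −0.80 ± 0.25 (adjusted p = 0.0612), which did not pass. In bulk RNA, fewer cells that express a gene and less of its RNA per cell cannot be told apart.

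The polysomal call of Tcof1 ended without wild-type total replicate 1 or 2 (adjusted p = 0.0508 and 0.0526), wild-type polysomal replicate 3 (0.0828), knockout polysomal library 1 (0.07) or library 3 (0.126), in a fit of the polysomal libraries alone (0.125) and under quantile normalization (0.0527). The total RNA value passed with DESeq2 (adjusted p = 0.0265), without knockout total library 1 (−1.06, adjusted p = 0.0489), without wild-type polysomal replicate 2 (0.0325) or knockout polysomal library 2 (0.0409), and in a fit of total RNA alone (0.0118). Alternatives other than leaving out 1 library called 616 to 2273 of all genes lower in total RNA, against 721 in the planned fit. Polysomal over total RNA, Tcof1 stood at −0.35 ± 0.29 in the knockout (adjusted p = 0.516) and −0.27 ± 0.17 in the wild type (adjusted p = 0.274). The difference between genotypes in that enrichment was −0.12 ± 0.33 (95% interval −0.85 to 0.61, adjusted p = 0.843).

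Nolc1 (ENSMUSG00000015176; GRCm38 chromosome 19, 46075847 to 46085543), a nucleolar and Cajal body phosphoprotein related to treacle and also called Nopp140, read 129.6, 168 and 112 in knockout polysomal and 236 and 218 in knockout total libraries. It read 250.2, 195 and 272 in wild-type polysomal and 209, 217 and 232 in wild-type total libraries. The 3 knockout polysomal libraries were below the other 8, and the total RNA libraries of the genotypes overlap. In polysomal RNA Nolc1 fell by 0.81 ± 0.19 in the knockout against the wild type (adjusted p = 0.0258), and in total RNA the estimate was 0.05 ± 0.22 (95% interval −0.42 to 0.52, adjusted p = 0.895). The polysomal call ended without wild-type total replicate 1 or 2 (adjusted p = 0.0516 and 0.0538), wild-type polysomal replicate 1 or 3 (0.066 and 0.0867), knockout polysomal library 1 or 3 (0.061 and 0.123), in a fit of the polysomal libraries alone (0.155) and under quantile normalization (0.0986).

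Polysomal over total RNA, Nolc1 stood at −0.71 ± 0.24 in the knockout (adjusted p = 0.141) and 0.11 ± 0.20 in the wild type (adjusted p = 0.706), where it was 0.29 and passed without polysomal replicate 2 (adjusted p = 0.0476). The difference between genotypes was −0.86 ± 0.29 (95% interval −1.50 to −0.23, adjusted p = 0.151). Without the 3 polysomal libraries that hold over 10% rRNA-like reads it was −1.27 (adjusted p = 0.0234), with 1 knockout polysomal library left, which is then assumed to vary like the other groups.

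Ncl (ENSMUSG00000026234; GRCm38 chromosome 1, 86344719 to 86359455) encodes nucleolin, an abundant nucleolar RNA-binding protein and histone chaperone. It read 662, 1005 and 677 in knockout polysomal libraries 1 to 3 and 1166 and 1061 in the knockout total libraries. In the wild type it read 1688, 687 and 1529 in polysomal and 852, 905 and 723 in total RNA replicates 1 to 3. Wild-type polysomal replicates 1 and 3 were the highest of all 11 libraries, and replicate 2 was below every wild-type total library. Polysomal over total RNA, the estimate was −0.50 ± 0.29 in the knockout (adjusted p = 0.339) and 0.55 ± 0.37 in the wild type (adjusted p = 0.296). Without wild-type polysomal replicate 2 the wild-type value was 1.0 and passed (adjusted p = 0.00046). In that fit 2765 of all genes were called higher, against 1101 with every library. With the length trend removed the wild-type value was 0.94 and passed (adjusted p = 0.0446). That trend uses the deposited length, 8243 bases for Ncl, and which bases it counts was not checked.

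The difference of Ncl between genotypes in polysomal enrichment was −1.09 ± 0.47 (95% interval −2.13 to −0.06, adjusted p = 0.223), the most negative of the 10 genes. It was −1.50 without wild-type polysomal replicate 2 (adjusted p = 0.0324) and −1.68 without the 3 rRNA-rich polysomal libraries (adjusted p = 0.0197). Knockout over wild type, Ncl stood at −0.66 ± 0.31 in polysomal RNA (adjusted p = 0.237) and 0.43 ± 0.35 in total RNA (adjusted p = 0.426). The polysomal value was −1.07 without wild-type polysomal replicate 2 (adjusted p = 0.00754) and −1.25 without the 3 rRNA-rich libraries, again with 1 knockout polysomal library left (adjusted p = 0.0068).

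Ddx21 (ENSMUSG00000020075; GRCm38 chromosome 10, 62580247 to 62602298), a DEAD-box helicase that in human cells binds ribosomal DNA and small nucleolar RNAs, read 143, 269 and 145 in knockout polysomal and 278 and 236 in knockout total libraries. It read 314, 169 and 353 in wild-type polysomal and 339, 337 and 293.5 in wild-type total libraries. Knockout polysomal library 2 and wild-type polysomal replicate 2 each stood apart from the other polysomal libraries of their genotype, the first above and the second below them. The estimates were −0.49 ± 0.31 for polysomal over total RNA in the knockout (adjusted p = 0.386) and −0.28 ± 0.31 in the wild type (adjusted p = 0.524). In the genotype contrast, knockout over wild type, Ddx21 stood at −0.58 ± 0.30 in polysomal RNA (adjusted p = 0.28) and −0.33 ± 0.34 in total RNA (adjusted p = 0.531). Without wild-type polysomal replicate 2 the polysomal value was −0.90 and passed (adjusted p = 0.0351), and without the 3 rRNA-rich libraries, with 1 knockout polysomal library left, it was −1.19 (adjusted p = 0.00571).

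**Figure D3:**
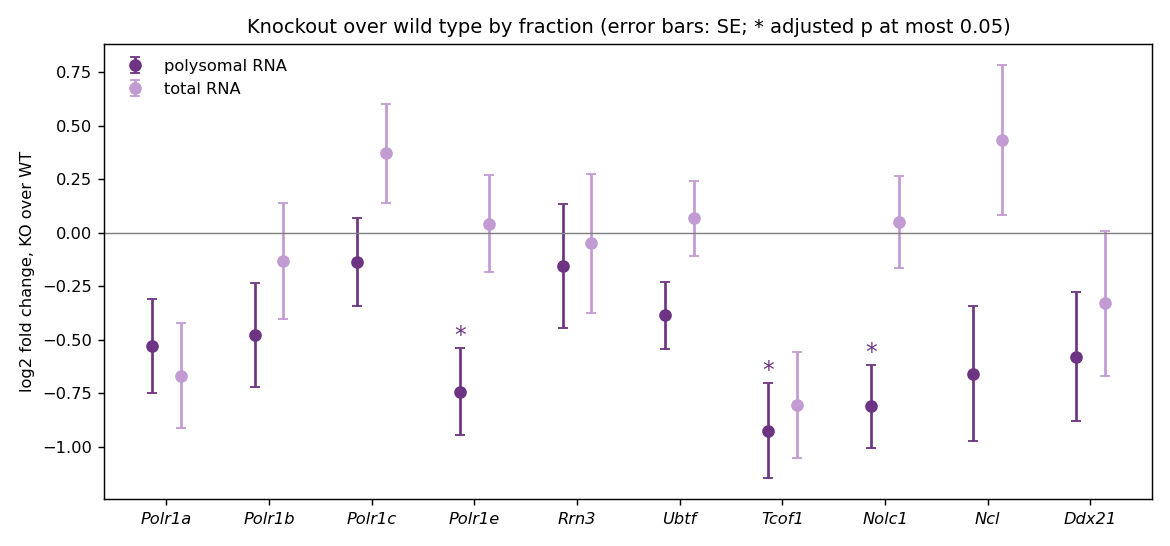
log2 fold change of knockout over wild type (y axis) with its SE for each gene (x axis), polysomal RNA left and total RNA right of each position, with a star at an adjusted p of at most 0.05. All 10 polysomal estimates are negative, from −0.93 (Tcof1) to −0.14 (Polr1c), and total RNA estimates run from −0.80 (Tcof1) to 0.43 (Ncl).

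Counted over the 10 genes, knockout over wild type in polysomal RNA gave 3 lower (Tcof1, Nolc1 and Polr1e) and 0 higher by limma, which called 3.50% of the 12463 genes tested lower and 4.82% higher. At an unadjusted p under 0.05 were 5 of the 10, against 23.2% of all genes. On recovered reads edgeR and DESeq2 each called 3 of the 10 lower and 0 higher, where over all genes edgeR called 3.27% lower and 4.68% higher and DESeq2 6.60% lower and 7.81% higher. The groups did not overlap for 4 of the 10 genes, all lower, against 11.0% of all genes lower and 12.6% higher. All 10 estimates were negative, and their median was −0.55, against −0.0015 over all genes. In total RNA limma called 0 of the 10, against 5.79% of all genes lower and 4.73% higher, with 2 at an unadjusted p under 0.05 (Polr1a and Tcof1), against 29.4% of all genes. There edgeR called 0 of the 10, against 4.94% of all genes lower and 5.39% higher, and DESeq2 called 1 lower, against 9.69% lower and 10.1% higher. These counts are near or below the background, and the median was −0.0035 for the 10 genes and −0.0097 over all genes. The groups did not overlap for 2 genes higher (Polr1c and Ncl) and 3 lower (Polr1a, Tcof1 and Ddx21), against 31.2% and 33.2% of all genes, shares near the background.

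In knockout polysomal over total RNA limma called 0 of the 10, against 1.85% lower and 0.911% higher of 12070 genes, with 2 at an unadjusted p under 0.05 (Polr1a and Nolc1), near the 22.7% of all genes. There edgeR called 0, against 1.84% of all genes lower and 0.671% higher, and DESeq2 called 1 lower, against 6.22% lower and 4.45% higher. In the knockout 9 of the 10 estimates were negative with a median of −0.43, against 0.04 over all genes. The groups did not overlap for 5 of the 10, all lower, against 18.3% of all genes lower and 22.3% higher. In wild-type polysomal over total RNA 1 gene was lower (Polr1a) and 1 higher (Polr1c), against 13.8% and 8.89% of 12380 genes, shares near the background. The groups did not overlap for 1 gene lower and 2 higher (Polr1c and Polr1e), against 27.7% and 23.2% of all genes. The median of the 10 was −0.09, against −0.02 over all genes, with 3 at an unadjusted p under 0.05, against 39.2% of all genes. Both edgeR and DESeq2 called 1 of the 10 lower and 2 higher there, where over all genes edgeR called 13% lower and 10.2% higher and DESeq2 17.9% lower and 17.4% higher. The difference between genotypes was called for 0 of the 10 by limma, edgeR and DESeq2. Over all genes limma called 0.0481% lower and 0.193% higher for it, edgeR 0.0722% lower and 0.177% higher, and DESeq2 3.78% lower and 4.0% higher. At an unadjusted p under 0.05 were 3 of the 10 (Polr1e, Nolc1 and Ncl), against 20.7% of all genes, and the median of the difference was −0.40 over the 10 and 0.05 over all genes. The comparisons share libraries, so their values for a gene are not independent.

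Polysomal libraries of 1 genotype were not alike. Set against averaged total RNA of the same genotype, the median of the 10 genes was −0.74, −0.19 and −0.55 in knockout polysomal libraries 1 to 3, and 0.10, −0.31 and 0.19 in wild-type polysomal replicates 1 to 3. The medians over all genes were 0.03, 0.03 and 0.06, and 0.01, −0.13 and 0.03. Their rRNA-like shares were 23.1, 32.7 and 0.385% in the knockout and 5.91, 14.5 and 0.674% in the wild type. For each doubling in gene length the log2 values of all genes changed by −0.16, 0.17 and 0.11 in these knockout libraries, and by −0.23, −0.53 and −0.14 in the wild-type ones. Polr1c was the shortest of the 10 at 2340 bases, and Ncl at 8243 bases and Ubtf at 8734 bases were the longest. Of the 10, Polr1c was the second highest in wild-type polysomal replicates 1 and 2 and knockout polysomal library 3. It was the highest in knockout polysomal library 1, and Ncl was the highest in wild-type polysomal replicates 1 and 3. The part of the rRNA-like share in these values was not tested for each gene. Of the 10 genes, 8, 8 and 10 were below averaged total RNA in knockout polysomal libraries 1 to 3. In wild-type polysomal replicates 1 to 3 it was 4, 8 and 2. The share of all genes below total RNA in each library was not counted.

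**Figure D4:**
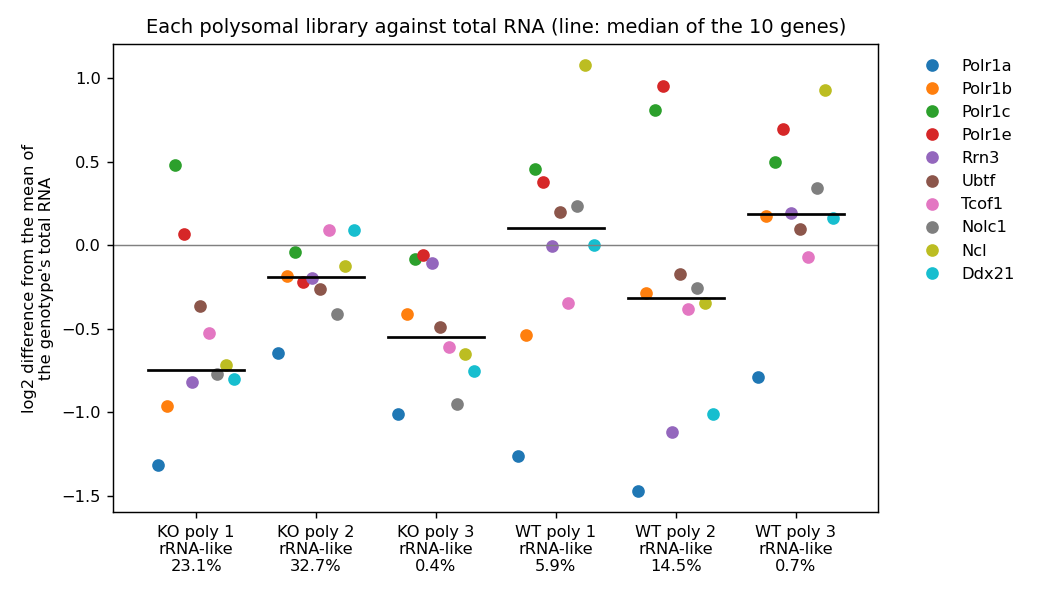
log2 difference of each polysomal library from averaged total RNA of the same genotype (y axis), with a coloured point per gene, a line at the median of the 10 genes and the library's share of rRNA-like reads on the x axis. The medians are −0.74, −0.19 and −0.55 in the knockout and 0.10, −0.31 and 0.19 in the wild type, and Polr1a is the lowest gene in 6 of the 6 libraries.

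Among the 10 genes, Nolc1 and Ubtf had the most alike profiles over the 11 libraries, with a root mean square difference of 0.22 on the log2 scale after each gene was centred on its own mean. Polr1a and Polr1c were the least alike, at 0.93. Nolc1 was also the nearest member of Polr1b (0.28), Ddx21 (0.26), Tcof1 (0.32) and Ncl (0.33), while Polr1c and Polr1e were nearest each other (0.29), Polr1a was nearest Tcof1 (0.43) and Rrn3 nearest Ddx21 (0.29). Outside the 10, the genes nearest to their mean profile among 9385 candidates were Ppm1g (0.095), Clcc1 (0.11), Actl6a (0.12), Ctps (0.12) and Yars (0.12), against a median of 0.49 over the candidates. The 10 genes themselves lay from 0.139 (Nolc1) to 0.503 (Polr1a) from that mean profile. The outside genes were picked as the nearest of all candidates, so their smaller distances say nothing about the 10 genes.

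Lists of related genes were counted in the same fits. In the knockout, polysomal over total RNA called 0 of 52 genes in 7 such lists by limma and edgeR, with 10 at an unadjusted p under 0.05, against 22.7% of all genes. DESeq2 called 4 of the 52 higher and 2 lower, against 4.45% and 6.22% of all genes. The list medians ran from −0.29 (RNA polymerase II subunits) to 0.23 (SL1). Of the 4 other RNA polymerase I subunits, 2 were higher and 0 lower by limma in wild-type polysomal over total RNA, as many by edgeR, while DESeq2 called 3 higher. These were Polr1d, a subunit shared with RNA polymerase III, at 1.62 ± 0.39 (adjusted p = 0.0249) and Znrd1, the small cleavage-stimulating subunit, at 0.99 ± 0.25 (adjusted p = 0.0289), and the list's median was 0.70. Of 5 subunits shared by polymerases I, II and III only Polr2h was called, at 1.02 ± 0.24 (adjusted p = 0.0246; list median 0.91). Of 5 SL1 genes, Taf1d at 2.74 ± 0.18 (adjusted p = 0.000919) and Taf1a at 1.04 ± 0.18 (adjusted p = 0.00896) were higher (list median 0.53). Of 11 genes of ribosomal DNA chromatin, termination and regulation, the growth regulator Myc was higher at 1.46 ± 0.27 (adjusted p = 0.0107) and the nucleolar repressor Mybbp1a lower at −0.78 ± 0.18 (adjusted p = 0.0233; list median −0.17).

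In wild-type polysomal over total RNA the largest RNA polymerase II subunit, Polr2a, was lower at −0.82 ± 0.21 (adjusted p = 0.0312), and so was the second largest RNA polymerase III subunit, Polr3b, at −1.08 ± 0.28 (adjusted p = 0.0323). Of 11 RNA polymerase III subunits 5 were higher and 2 lower (median 0.54), and of 8 RNA polymerase II subunits 2 were higher and 1 lower (median 0.77). Over all genes 8.89% were called higher and 13.8% lower. The small RNA polymerase III subunits Polr3k at 1.09 ± 0.18 (adjusted p = 0.00806) and Crcp at 1.08 ± 0.29 (adjusted p = 0.0344) were among those higher. Of 8 nucleolar marker genes Npm1 at 1.38 ± 0.32 (adjusted p = 0.0237) and Gnl3 at 1.01 ± 0.21 (adjusted p = 0.0169) were higher (median 0.51).

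Knockout over wild type in polysomal RNA, Nop2, a nucleolar RNA methyltransferase, was lower at −1.07 ± 0.19 (adjusted p = 0.00587), as were Mybbp1a at −0.74 ± 0.20 (adjusted p = 0.0474) and Polr2a at −0.98 ± 0.26 (adjusted p = 0.0366). The nucleolar markers had the most negative median there, at −0.68, and the other RNA polymerase I subunits stood at −0.39. By limma 3 of the 52 genes were lower there and 0 higher, against 3.50% and 4.82% of all genes. By edgeR 2 were lower, against 3.27%, and by DESeq2 8, against 6.60%. In total RNA Polr2a was lower at −1.0 ± 0.29 (adjusted p = 0.048) and Polr2g, a small RNA polymerase II subunit, higher at 1.10 ± 0.29 (adjusted p = 0.034). Limma thus called 1 of the 52 lower and 1 higher in total RNA, against 5.79% and 4.73% of all genes. By edgeR 0 were lower, so Polr2a was not called, and 4 higher, against 4.94% and 5.39%. By DESeq2 2 were lower and 6 higher, against 9.69% and 10.1%. At an unadjusted p under 0.05 were 17 of the 52 in total RNA, against 29.4% of all genes. By limma and edgeR the difference between genotypes was called for 0 of the 52 genes, with 17 at an unadjusted p under 0.05, against 20.7% of all genes. DESeq2 called 10 of the 52 lower and 0 higher for that difference, against 3.78% and 4.0% of all genes.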

How the data were processed

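RNA sequencing measured total and polysomal RNA of C2C12 cells. The submitters' processing notes name STAR, HTSeq and edgeR as tools and mm10 as the build. Their versions, roles and strand settings are not given in the sources used here. The authors deposited 1 table per genotype, scaled separately, with a normalised read count per gene and library as its signal. Column sums ran from 847338 to 1215073, so these are not plain CPM. Of the deposited values 100% were whole numbers of reads, within 0.001 reads, times 1 factor per library. A value of 0 allows up to 3 reads, or 0.0989 to 0.257 normalised read counts, and covers counting error only. Per the file headers, other columns hold each gene's length in bases, a log2 fold change by the authors, and an FDR, which is the authors' adjusted p-value.

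Genes that reached 1 in at least 3 libraries were fitted with limma 3.58.1 (R 4.3.3) with a mean-variance trend on log2 of the value plus 1, which makes fold changes of low genes smaller, and p-values were adjusted by Benjamini-Hochberg over all genes tested. Polysomal was compared with total RNA within each table. Knockout was compared with wild type, and the difference of the 2 contrasts tested, with 4 group means, after median-of-ratios scaling of the 11 libraries together. The planned test assumed CPM and was kept. Recovered reads were also tested with edgeR 4.0.16 and DESeq2 1.42.0. Scripts were tested on simulated data. The 10 genes and the lists were chosen with earlier results of these data known. All 10 are named, and from each other list at most 4 genes past the threshold with the largest change. A gene that this rule names is not reported here. Likeness candidates had a mean value of at least 10. The 4 rRNA-like gene models (Gm26924, mmu-mir-6236, Lars2 and Gm23935) were chosen after seeing the data. Coordinates and promoter windows came from RefSeq, matched by symbol.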

Additional observations from a re-analysis of the deposited data

How the results depend on the processing

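The alternatives were another pseudocount, no filter on low values, quantile normalization, edgeR and DESeq2 on recovered reads, a gene length trend removed, a fit of only the groups compared, a replicate block, and each library left out in turn. A further one, chosen after seeing the data, left out the 3 polysomal libraries with over 10% rRNA-like reads. Of 810 values of the 10 genes under alternatives, 712 kept their direction and side of the threshold, 38 lost a call, 29 gained one and 31 changed sign, with no value called before or after a sign change. In knockout polysomal over total RNA the count of lower genes was 0, and 1 with DESeq2, 1 with the length trend removed and 0 to 1 with 1 library left out. In wild-type polysomal over total RNA the count of higher genes was 1, and 2 with edgeR, 2 with DESeq2, 2 with the length trend removed, 4 without the rRNA-rich library and 0 to 4 with 1 library left out, and the count of lower genes was 0 to 1 with 1 library left out. Knockout over wild type in total RNA gave 0 lower genes, and 1 with DESeq2, 2 in a fit of total RNA alone and 0 to 2 with 1 library left out. In polysomal RNA it gave 3 lower genes, and 4 with the length trend removed, 4 without the rRNA-rich libraries, 0 under quantile normalization, 0 in a fit of polysomal RNA alone and 0 to 4 with 1 library left out. The difference between genotypes gave 0 lower genes, and 2 without the rRNA-rich libraries and 0 to 1 with 1 library left out. With 1 library left out, calls over all genes moved too. They ran from 83 to 2765 higher and 378 to 3012 lower in wild-type polysomal over total RNA, both highest without polysomal replicate 2. In the knockout they ran from 2 to 862 and 3 to 760. Knockout over wild type gave 257 to 908 and 162 to 737 in polysomal RNA. In total RNA it gave 78 to 1491 and 180 to 1486. For the difference they ran from 0 to 219 and 0 to 138. Alternatives other than leaving out 1 library moved calls over all genes as well. In knockout polysomal over total RNA, removing the length trend gave 662 higher and 798 lower, against 110 and 223 in the planned fit. Knockout over wild type in total RNA gave 540 to 2144 higher and 616 to 2273 lower over such alternatives, against 589 and 721. The causes were not tested.

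With the length trend removed, the sign changed for Polr1b in wild-type polysomal over total RNA (0.040) and knockout over wild type in total RNA (0.080), and for the difference of Polr1a (−0.15). Without rRNA-rich libraries it changed for Polr1c in the knockout (−0.084), Rrn3 (0.096) and Ddx21 (0.084) in the wild type and the difference of Polr1a (−0.011). Quantile normalization changed it for Nolc1 in total RNA (−0.0068). With 1 library left out, knockout polysomal over total RNA ran from −0.061 to 0.25 for Polr1c and −0.15 to 0.014 for Polr1e. In the same fits wild-type polysomal over total RNA ran from −0.037 to 0.15 for Ubtf, −0.56 to 0.096 for Rrn3, −0.50 to 0.084 for Ddx21 and −0.0095 to 0.29 for Nolc1. Knockout over wild type ran from −0.040 to 0.12 for Polr1e, −0.0078 to 0.11 for Nolc1 and −0.33 to 0.060 for Polr1b in total RNA, and from −0.32 to 0.012 for Polr1c and −0.52 to 0.078 for Rrn3 in polysomal RNA. The difference ran from −0.47 to 0.13 for Rrn3, −0.38 to 0.14 for Tcof1 and −0.056 to 0.34 for Polr1a.

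Wild-type libraries with the same replicate number correlated at 0.21, −0.22 and −0.072 in their deviations. Those with different numbers ran from −0.31 to 0.26. With 3 libraries in a group this cannot tell whether samples of the same number come from 1 culture. With the replicate block the count of higher genes in wild-type polysomal over total RNA was 0, Polr1c having an adjusted p of 0.101, and the count over all genes was 703 higher and 1243 lower, against 1101 and 1705 without it. No paired analysis was possible because the knockout columns carry no replicate number of the labels, which holds for the knockout contrast and for all comparisons between genotypes.

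Over all genes, edgeR and DESeq2 called 81 and 537 higher and 222 and 751 lower in knockout polysomal over total RNA, against 110 and 223 by limma, and 1267 and 2154 higher and 1607 and 2215 lower in the wild type, against 1101 and 1705 by limma. The knockout total group has 2 libraries, and estimates that use it rest on those.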
